A study of Mus musculus with 4 samples.

Results

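The proliferation genes of the E14.5 mouse fetal liver described here are Mki67, Top2a, Birc5, Cdk1, Ccna2, Ccnb1 and Pcna. They were chosen by gene and are read by 8 of the 45101 probe sets of the Affymetrix mouse expression array used, 2 of them for Ccnb1 and 1 for each other gene. Total RNA of Stk40 KO fetal livers, from embryos that inherited a targeted deletion of Stk40, a gene of the serine/threonine kinase family, from both parents, was compared with that of WT fetal livers, with 2 arrays per genotype. Both genotypes were C57BL/6J embryos from matings of Stk40 heterozygotes, collected at E14.5 with no treatment. Each array was hybridized with pooled RNA of 6 livers of 1 genotype, so the spread between the 2 arrays of a genotype is that between pools and not between embryos. The comparison asks whether transcripts of dividing cells differ between livers with and without Stk40.

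At this stage the fetal liver is the main site of blood formation, and dividing erythroblasts make up much of it, beside hepatoblasts that divide as well. Transcripts of the cell division machinery are therefore abundant in the organ. Pcna and Top2a act on DNA in S phase and beyond, cyclin A2 (Ccna2) drives S phase and G2, cyclin B1 (Ccnb1) with its kinase Cdk1 drives entry into mitosis, and survivin (Birc5) and Ki-67 (Mki67) act on mitotic chromosomes. Expression of such genes rises as cells pass from G1 to mitosis, and in G2 and M phase genes this depends on CCAAT boxes, bound by NF-Y, and on the cell cycle genes homology region (CHR), bound by the MuvB complex. Genes of S phase are controlled mainly through E2F sites.

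RefSeq promoters on GRCm38.p6 were at hand for 6 of the 7 genes, each window reaching from 250 bases before to 50 after the start site, and they show which of these letters the members share. CCAAT, read on both strands, was found in 5 of the 6 windows against 37.4% of all 32851 promoter windows, and at least 2 matches were found in 4 of the 6 against 11.7%. The CHR letters TTTGAA or TTCGAA, on both strands, were found in the windows of Mki67, Top2a and Cdk1, 3 of 6 against 19.2% of all windows. These 3 windows also hold CCAAT, and 7.52% of all windows hold both CCAAT and the CHR letters. The E2F letters TTTCGCGC, TTTGGCGC, TTTCCCGC or TTTGCCGC were found only in the window of Cdk1, 1 of 6 against 2.26%. The motifs do not overlap each other in these windows. A match here is a match of letters in a short window and no measured binding site. The 250 bases before the start site are printed, 5′ to 3′ along the gene's strand, for Top2a, Cdk1 and Ccnb1, which carry most of these matches together with Mki67; that of Mki67 is not shown because its annotated gene span reaches well into the window. Capitals mark each match to CCAAT (or ATTGG on the other strand), to the CHR letters (or TTCAAA on the other strand) and to the E2F letters.
Top2a (chr11:99024190-99024439, minus strand): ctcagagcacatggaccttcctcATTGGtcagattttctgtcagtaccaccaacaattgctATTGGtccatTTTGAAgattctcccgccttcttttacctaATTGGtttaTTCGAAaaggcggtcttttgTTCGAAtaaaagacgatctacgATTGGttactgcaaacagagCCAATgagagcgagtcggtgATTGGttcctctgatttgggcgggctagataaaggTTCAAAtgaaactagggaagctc
Cdk1 (chr10:69352913-69353162, minus strand): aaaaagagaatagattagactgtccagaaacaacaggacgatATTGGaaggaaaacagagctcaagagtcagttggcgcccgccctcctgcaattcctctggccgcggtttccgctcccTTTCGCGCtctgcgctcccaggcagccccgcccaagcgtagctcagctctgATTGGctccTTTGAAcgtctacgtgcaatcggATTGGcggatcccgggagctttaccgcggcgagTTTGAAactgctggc
Ccnb1 (chr13:100786487-100786736, minus strand): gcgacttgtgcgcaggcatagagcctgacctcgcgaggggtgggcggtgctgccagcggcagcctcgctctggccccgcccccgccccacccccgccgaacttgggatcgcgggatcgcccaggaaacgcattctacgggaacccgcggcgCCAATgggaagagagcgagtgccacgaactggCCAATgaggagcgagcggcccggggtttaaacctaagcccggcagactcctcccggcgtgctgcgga
In Top2a, 4 CHR matches lie among 6 CCAAT matches, and the match nearest to the start site is a CHR match on the other strand that begins at -23. In Cdk1, the order towards the start site is the E2F match at -131, CCAAT at -80, CHR at -71, CCAAT at -48 and CHR at -15, with a further CCAAT match at -208. Mki67 has CCAAT at -188, -166 and -141 and CHR at -116 and -98. Ccnb1 has CCAAT at -99 and -67. Pcna has CCAAT at -87, and none of these letters was found in the window of Birc5, which says only that they do not occur in those bases.

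Each deposited value is the linear intensity, in arbitrary units, of a probe set on an array. The values had not been brought to a common brightness, and the 75th percentile of the positive values was 266 and 263 for the Stk40 KO pools, against 205 and 246 for the WT pools. Spiked hybridization controls, bacterial and phage transcripts added alike to all samples, averaged 9.93 and 10.1 on the log2 scale in the Stk40 KO pools, against 9.62 and 9.94 in the WT pools. The genotypes overlap in these controls, and their difference of 0.23 rests mostly on WT replicate 1, since it was 0.07 without that array, where the 75th percentiles differed by 0.10 on the log2 scale against 0.23 with it. Values are therefore given both as deposited and after bringing the arrays to equal 75th percentiles, where the spiked controls differed by -0.01. A value of 143, which 95% of the negative values do not exceed in size, served as the noise level on both scales, and of 45037 probe sets other than controls 24.1% to 28.5% exceeded it on each array. Differences were tested with limma on log2 intensities for 12319 probe sets that exceeded it on 2 or more arrays (12600 as deposited), with p-values adjusted by the Benjamini-Hochberg procedure over all of them. Between arrays Pearson's r was 0.993 in each genotype and 0.983 to 0.989 between genotypes, computed over the tested probe sets, and probe sets are no replicates. The only probe set named Stk40 stood at -98.9 and -111 in the Stk40 KO pools, against 59.9 and 52.2 in the WT pools. All 4 values lie under the noise level, so no change in Stk40 is read from them. This probe set has a name only through the authors' deposited table of 2-fold changes on the same arrays. A difference between genotypes was therefore fixed in advance. Any other probe sets of Stk40 have no name here, and where this one lies relative to the deleted part was not examined.

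All 7 genes were strongly expressed in both genotypes, and none passed the test. On every array each of the 8 probe sets stood at least 8.94 times above the noise level. As deposited, the ratio of Stk40 KO to WT means lay between 0.97 (Ccna2) and 1.06 (Top2a), and for all 8 probe sets both Stk40 KO values lay between the 2 WT values. With equal 75th percentiles the ratio lay between 0.83 (Ccna2) and 0.91 (Top2a), and both Stk40 KO values lay under both WT values for all 8 probe sets. By limma 0 of the 8 had an adjusted p under 0.05, against 1.86% of all tested probe sets with equal 75th percentiles (0.666% were called lower in Stk40 KO) and 2.34% as deposited. At an unadjusted p under 0.05 in limma, 8 of the 8 were lower in Stk40 KO with equal 75th percentiles, as were 11.4% of all tested probe sets and 26.9% of those in the members' range of brightness. As deposited 0 of the 8 reached this in either direction, against 0.357% of all tested probe sets lower and 10.9% higher in Stk40 KO. The methods' t-test with equal 75th percentiles counted 3 of the 8 before adjustment, against 8.19% of all tested probe sets lower in Stk40 KO, and 0 after adjustment.

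**Figure D1:**
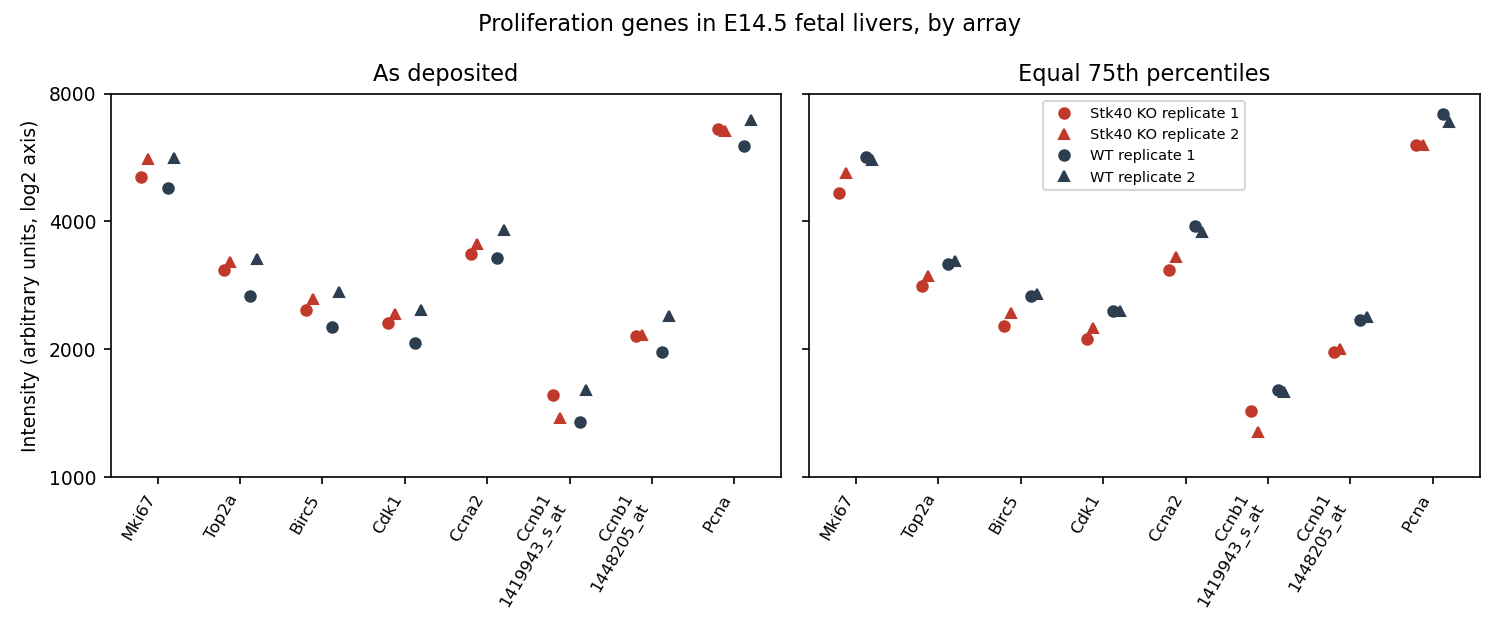
Intensity (arbitrary units, log2 axis) of the 8 probe sets on the 2 Stk40 KO arrays (red) and the 2 WT arrays (dark blue), as deposited on the left and with equal 75th percentiles on the right; circles are replicate 1 and triangles replicate 2. As deposited WT replicate 1 is the lowest and WT replicate 2 the highest point for all 8 probe sets, and with equal 75th percentiles both Stk40 KO points lie under both WT points for all 8.

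Pcna encodes the sliding clamp that holds DNA polymerases on the template, and the gene lies at chr2:132249286-132253180 (RefSeq, GRCm38.p6, as are the spans of the other genes). As deposited its intensity was 6586 and 6516 in the Stk40 KO pools, against 6036 and 6914 in the WT pools. With equal 75th percentiles it was 6039 and 6045 in the Stk40 KO pools, against 7167 and 6846 in the WT pools. The Stk40 KO arrays lie between the WT arrays in the deposited values and below both after scaling, where the means were 6042 ± 4.10 in Stk40 KO and 7006 ± 227 in WT (SD, n = 2 arrays each). Top2a, at chr11:98992947-99024199, encodes the topoisomerase that untangles replicated DNA. Its deposited intensity was 3077 and 3205 in the Stk40 KO pools, against 2668 and 3267 in the WT pools, and after scaling it was 2821 and 2973 in Stk40 KO, against 3168 and 3235 in WT. Its scaled ratio was the nearest to 1 of the 8 probe sets, with means of 2897 ± 108 in Stk40 KO and 3201 ± 47.5 in WT.

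Ccna2, at chr3:36564865-36573038, encodes cyclin A2, the partner of Cdk2 in S phase and of Cdk1 later. On the Stk40 KO arrays its deposited intensity was 3348 and 3547, against 3283 and 3822 on the WT arrays. After scaling it was 3070 and 3290 in the Stk40 KO pools, against 3898 and 3785 in the WT pools. Its scaled ratio was the farthest from 1 of the 8, with means of 3180 ± 156 in Stk40 KO and 3842 ± 80.3 in WT. After scaling, the gap between the groups was wider for Ccna2 than the distance between the arrays of either genotype. The share of other probe sets with such a gap was not computed, so nothing is read from it. With this scaling, Stk40 KO values below all WT values were found in 55.1% of tested probe sets in the members' range of brightness. The scaled log2 fold change of Ccna2 was -0.27 (standard error 0.06, 95% interval -0.42 to -0.13), with an adjusted p of 0.0723 in limma.

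Cdk1, at chr10:69335146-69352912, encodes the kinase of mitosis. Its deposited intensity was 2308 and 2424 in the Stk40 KO pools, against 2074 and 2481 in the WT pools, and after scaling it was 2116 and 2249 in Stk40 KO, against 2463 and 2456 in WT. Its cyclin partner Ccnb1, at chr13:100778739-100786486, was read by 2 probe sets that share this target and are not independent of each other. The probe set with the plain suffix _at had a scaled intensity of 1967 and 2006 in the Stk40 KO pools, against 2342 and 2379 in the WT pools. The probe set with the suffix _s_at, which marks probes that match several transcripts, had 1431 and 1277 in the Stk40 KO pools, against 1600 and 1590 in the WT pools. Both lay lower in Stk40 KO after scaling, by log2 fold changes of -0.25 (standard error 0.06, adjusted p = 0.0794 in limma) and -0.24 (standard error 0.07, adjusted p = 0.150 in limma). As deposited, the _at probe set had 2145 and 2162 in Stk40 KO, against 1973 and 2403 in WT, and the _s_at probe set had 1561 and 1377 in Stk40 KO, against 1348 and 1605 in WT. The ratio of the _s_at to the _at probe set within an array, which a single factor per array cannot move, was 0.73 and 0.64 on the Stk40 KO arrays and 0.68 and 0.67 on the WT arrays, so the 2 probe sets show no separation of the genotypes relative to each other.

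Birc5, at chr11:117849237-117855743, encodes survivin, a subunit of the chromosomal passenger complex that guides Aurora B kinase and, by sequence, a member of the family of inhibitors of apoptosis. Its deposited intensity was 2479 and 2631 in the Stk40 KO pools, against 2253 and 2723 in the WT pools. After scaling it was 2273 and 2441 in Stk40 KO, against 2675 and 2696 in WT, with means of 2357 ± 119 in Stk40 KO and 2685 ± 15.0 in WT. Mki67, at chr7:135689784-135716450, encodes Ki-67, which coats mitotic chromosomes and is the usual stain for dividing cells. Its deposited intensity was 5101 and 5604 in the Stk40 KO pools, against 4783 and 5639 in the WT pools. After scaling it was 4677 and 5199 in Stk40 KO, against 5679 and 5584 in WT, so that the Stk40 KO arrays lie farther apart than the WT arrays and still below both.

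Among the remaining probe sets the log2 fold change in limma with equal 75th percentiles was -0.14 for Top2a (adjusted p = 0.257), -0.17 for Cdk1 (adjusted p = 0.195), -0.19 for Birc5 (adjusted p = 0.172), -0.19 for Mki67 (adjusted p = 0.191) and -0.21 for Pcna (adjusted p = 0.113). Standard errors of the 8 probe sets lay between 0.06 and 0.07. An exact two-sided permutation test over the 4 arrays gave p = 0.333 for each with equal 75th percentiles, the smallest that 2 against 2 allows. As deposited none of the 8 reached this smallest value. The design thus cannot reach 0.05 for a single gene by that test. With equal 75th percentiles the 95% intervals ran from 0.75-fold to 1.00-fold of WT over the 8 probe sets, and as deposited from 0.76-fold to 1.36-fold, so a 2-fold difference in either direction lies outside every interval on both scales. As deposited, adjusted p lay between 0.796 and 0.989 in limma, whose prior degrees of freedom were then infinite, so that a probe set's own spread did not enter. By the fold rule of the paper's methods, a 2-fold ratio of means, 0 of the 8 probe sets were counted on either scale, and the authors' deposited table of 2-fold changes holds 0 of them among its 1467 probe sets.

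**Figure D2:**
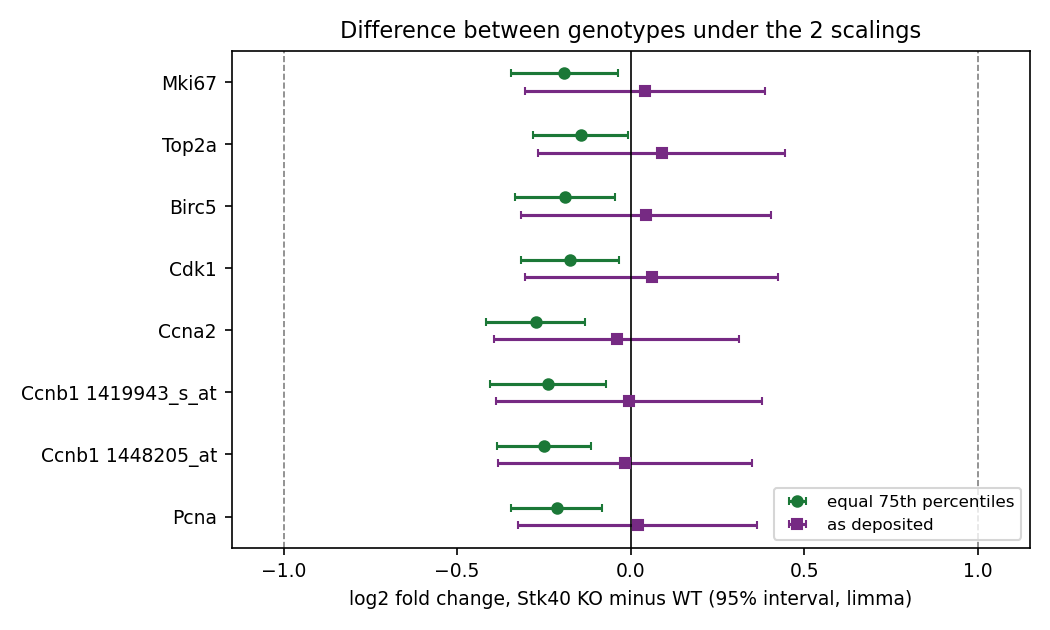
Log2 fold change (Stk40 KO minus WT) of the 8 probe sets with 95% intervals from limma, with equal 75th percentiles (green circles) and as deposited (purple squares); dashed lines mark a 2-fold difference in either direction. Estimates lie at -0.27 to -0.14 after scaling and at -0.04 to 0.09 as deposited, and no interval reaches a dashed line.

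The direction of these small differences depends on how the arrays are brought to a common brightness. As deposited, 5 of the 8 probe sets (Mki67, Top2a, Birc5, Cdk1 and Pcna) were higher in Stk40 KO and 3 were lower, with a median log2 fold change of 0.03, while the median of all tested probe sets was 0.18. With equal 75th percentiles all 8 were lower, with a median of -0.20 against -0.04 over all tested probe sets. Scaling to the spiked controls gave a median of -0.20 for the 8 and -0.03 over all, and quantile normalization gave -0.11 and -0.01. Relative to the median of all tested probe sets, the members' median thus lay lower by 0.15 as deposited, 0.17 with equal 75th percentiles, 0.17 with the spiked controls and 0.10 after quantile normalization. Most tested probe sets are dimmer than the members. In the members' range of brightness the median was 0.146 as deposited and -0.089 with equal 75th percentiles, nearer to that of the members on both scales. The distance of the members from the spiked controls on the same array, as a difference of mean log2 intensities, was 1.62 and 1.50 on the Stk40 KO arrays and 1.80 and 1.73 on the WT arrays, and these do not overlap. The share of other probe sets that separate in this way from the spiked controls was not computed. With equal 75th percentiles such a separation, Stk40 KO lower, was found in 32.4% of all tested probe sets. In the members' range of brightness it was found in 55.1%, so it is common among bright probe sets.

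**Figure D3:**
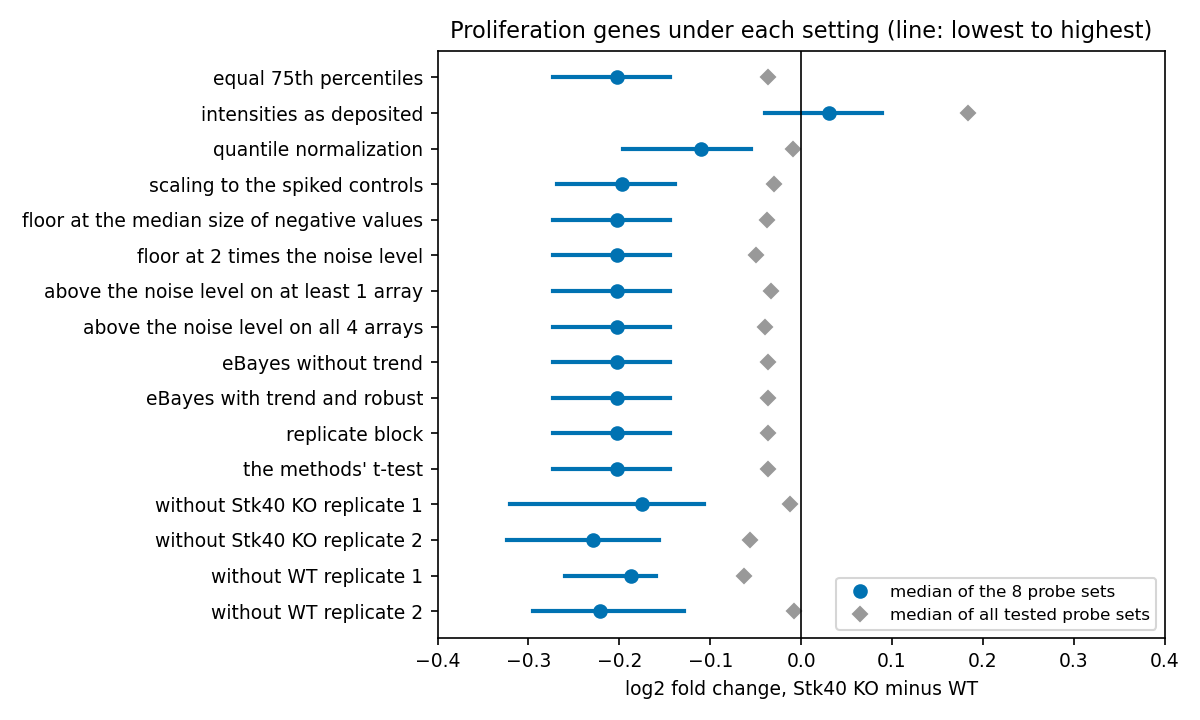
Log2 fold change (Stk40 KO minus WT) of the 8 probe sets under each setting of the scaling, floor, filter, test and arrays left out; circles are the median of the 8, lines run from the lowest to the highest, and grey diamonds are the median of all tested probe sets. The circle lies left of the diamond in every row, and only the intensities as deposited put it above 0, at 0.03.

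With equal 75th percentiles, all Stk40 KO values lay below all WT values in 32.4% of tested probe sets, against 8 of 8 here. As deposited this was so in 1.3% of tested probe sets and the opposite in 45.5%, against 0 of 8 in either direction here. Among the 1419 tested probe sets with a mean intensity between those of the dimmest and the brightest member (1475 to 6524), the median log2 fold change was -0.09, 80.9% were lower in Stk40 KO, and groups did not overlap, with Stk40 KO lower, in 55.1%, whereas as deposited 7.44% of the probe sets in the members' range of brightness were lower in Stk40 KO. The members' log2 fold changes stood between the 4.4th percentile of all tested probe sets (Ccna2) and the 19.7th percentile (Top2a). The control probe sets for the 3′ ends of Actb and Gapdh, which encode cytoskeletal actin and a glycolytic enzyme, differed by -0.15 and -0.05 on the log2 scale after scaling and by 0.08 and 0.18 as deposited, without a test.

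**Figure D4:**
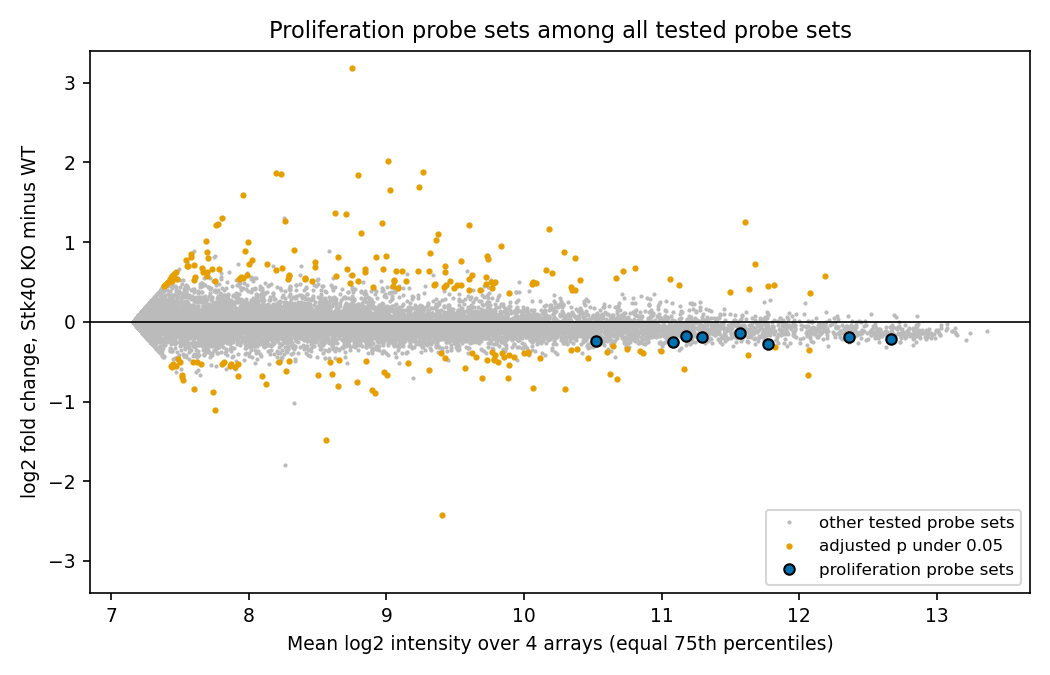
Log2 fold change (Stk40 KO minus WT, equal 75th percentiles) against mean log2 intensity over 4 arrays for the 12319 tested probe sets, with the 8 proliferation probe sets as ringed blue points and probe sets past an adjusted p of 0.05 in orange. The blue points lie in the bright part at -0.27 to -0.14, inside the grey cloud and below its middle, and the cloud itself bends under 0 towards high intensity.

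Differences among the members do not depend on a factor that all probe sets of an array share. The spread between the highest (Top2a) and the lowest (Ccna2) log2 fold change was 0.13 on both scales. The intensity of Ccna2 over that of Top2a was 1.09 and 1.11 in the Stk40 KO pools, against 1.23 and 1.17 in the WT pools, so the genotypes did not overlap, with an exact two-sided permutation p of 0.333, the smallest possible. This pair is the most extreme of the 8 and was chosen after its values were seen. Relative to the mean of the 8 on the same array, Top2a and Cdk1 stood higher on both Stk40 KO arrays than on both WT arrays, by 0.06 and 0.04 on the log2 scale. Ccna2 and the _at probe set of Ccnb1 stood lower, by differences of -0.06 and -0.04, and for Mki67, Birc5, Pcna and the _s_at probe set of Ccnb1 the genotypes overlapped. Centring on the mean of the 8 forces some members up where others go down. A separation in either direction also arises often by chance with so few arrays, where the smallest possible exact two-sided permutation p is 0.333. No background share was computed for such separations, so no difference among the members is read from these shifts.

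Further genes of cell division could be followed only where the authors' deposited table of 2-fold changes gives a probe set its name. Of 127 such genes in 4 lists, that table names 5, none with an array above the noise level, so that they could not be tested and no fold is given. Of 38 genes of DNA replication and S phase it names 0. Of 54 genes of G2 and mitosis it names Incenp, which encodes the scaffold of the chromosomal passenger complex that survivin belongs to, with 1.45 and 2.18 in the Stk40 KO pools, against 20.9 and 23.5 in the WT pools. Of 20 genes of G1 cyclins, their kinases and the E2F and RB families it names Cdk2, the kinase partner of cyclins E and A, with -2.73 and -0.91 in Stk40 KO, against 1.73 and 2.0 in WT, and Rbl1, the pocket protein p107, with 8.82 and 14.45 in Stk40 KO, against 2.0 and 2.45 in WT. Of 15 CDK inhibitors and antiproliferative genes it names Cdkn1a, the inhibitor p21, with 13.6 and 35.5 in Stk40 KO, against 2.73 and 10.8 in WT, and Gadd45b, a stress-induced regulator, with 19.4 and 38.0 in Stk40 KO, against 5.0 and 1.55 in WT. These 5 probe sets were chosen for a 2-fold difference on the same arrays, and other probe sets of these genes, which may be brighter, have no name here. That a listed gene is missing from the table therefore says nothing of its level.

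RNA of a whole liver does not tell fewer cells of a type from less RNA per cell. Of 10 neutrophil genes 4 are named in the table (Camp, Lcn2, Ltf and Ngp), all of them visible here only through a 2-fold change on the same arrays and so given without a test, and the sum of their deposited intensities was 4138 and 5820 in the Stk40 KO pools, against 1712 and 1765 in the WT pools. Of 10 macrophage genes it names Cd163 and Marco, both under the noise level on all arrays, and of 10 endothelial and mesenchymal genes Des, under the noise level as well, and Col1a1, whose brighter probe set had 517 and 644 in Stk40 KO, against 267 and 291 in WT. Of 17 erythroid, 12 hepatoblast, 7 megakaryocyte, 8 stem and progenitor and 6 B lymphoid genes it names 0, so the labelled tissue could not be checked against its defining markers. The ratio of the 3′ to the 5′ control probe set, a sign of RNA integrity, was 1.18 and 1.33 in Stk40 KO, against 1.27 and 1.39 in WT for Gapdh, and 1.42 and 1.58 in Stk40 KO, against 1.58 and 1.57 in WT for Actb, with overlap between genotypes for both. The part of these cells or of RNA integrity in the differences of the proliferation genes was not tested.

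Likeness of pattern over the 4 arrays was measured as the distance of a probe set's log2 values, centred on their mean, from the mean pattern of the 8. The members themselves lay between 0.05 and 0.15 from it, and 2982 of the 12319 tested probe sets (24.2%) lay no farther than 0.15. Because the pattern is the members' own mean, their nearness to it was in part fixed in advance. The nearest of the 76 named ones were Rnf219 at 0.30, Pon1 at 0.35, Cyp3a41a at 0.36, AI117581 at 0.37 and Mal2 at 0.47, and 8801 tested probe sets were at least as near as Rnf219. All 5 are dim, with no array above a scaled intensity of 172. Pon1, Cyp3a41a, AI117581 and Mal2 were under the noise level on both WT arrays and Rnf219 on WT replicate 1, and the distances use those values raised to the noise level. The first 4 of these passed the filter only through the Stk40 KO arrays, so nothing is read from their direction, and names exist only for probe sets with a 2-fold change.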

How the data were processed

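Total RNA of pooled E14.5 fetal livers (2 Stk40 KO and 2 WT arrays) was measured on Affymetrix mouse expression arrays. The authors deposited linear intensities, 1 per probe set and array, with negative values kept. The submitters' processing notes name MAS5, and its version is not given in the sources used here. The authors also deposited a table of 2-fold changes (intensities raised to at least 0.1, means, folds and gene symbols), of which only the symbols were used, 1 symbol for each of 1418 of its 1467 probe sets; its intensities equal those of the full table. Arrays were scaled to equal 75th percentiles of their positive values (main setting, since brightness differed between arrays), values under the noise level were raised to it, and limma 3.58.1 in R 4.3.3 (lmFit, then eBayes with a trend) compared genotypes, with a threshold of 0.05 for adjusted p. Genotypes and replicate numbers came from the labels. The submitters call the arrays biological replicates; their number limits the precision. Alternatives covered scaling, floor, filter, prior variance, a replicate block, the t-test that the paper's methods name in general (its array calls used a fold rule only) and omission of single arrays. The fit was also run on simulated arrays, with normal values whose spread followed a trend in brightness. That run had to pass only on large planted changes, so it does not bear on differences as small as those of the members. Members, lists and tests were chosen with earlier results of these data known. Named beside the members were list genes with a symbol, Stk40 and the 5 named probe sets of nearest pattern. Planned medians and tests of the cell cycle lists could not be made, because their probe sets have no name here.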

Additional observations from a re-analysis of the deposited data

How the results depend on the processing

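Over the 15 alternatives, the log2 fold changes of the 8 proliferation probe sets kept their sign, except as deposited, where Mki67 (0.042), Top2a (0.089), Birc5 (0.045), Cdk1 (0.060) and Pcna (0.020) were above 0. In limma Ccna2 passed with the floor at the median size of the negative values (adjusted p = 0.0453), above the noise level on all 4 arrays (0.0358) and with a robust prior (0.0474), 1 of 8 probe sets each time, where 3.26%, 3.65% and 2.94% of all tested probe sets passed. Its adjusted p ran from 0.0184 to 0.902 over all alternatives. With the replicate number as a block (replicate block) 3 of 8 passed, Ccna2 (0.0184) and Ccnb1 by both probe sets (0.0158 and 0.0265), while 10.9% of all tested probe sets passed and 6.09% fell, against 1.86% and 0.666% with no block. The samples share only a number. Deviations of same-numbered arrays correlated at 0.24 across probe sets, and with 2 pairs this does not show a pairing. Leaving out any 1 array, 0 of 8 passed in limma (2 to 7 at an unadjusted p under 0.05, against 5.05% to 8.65% of all tested probe sets lower), and the lowest bound of any 95% interval was -0.53.

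Over all tested probe sets 147 rose and 82 fell with equal 75th percentiles. As deposited 284 rose and 11 fell, a split of 96.3% upward against 64.2% with equal 75th percentiles and 75.7% after quantile normalization and 75.3% with spiked controls. With spiked controls 48 fell, with no trend 53, with a robust prior 154 and above the noise level on all 4 arrays 200. The lower floor gave 238 and 163, the replicate block 597 and 750 and the methods' t-test 5 and 1. A filter of 1 array, chosen after the data were seen, gave 22 and 10. Without any 1 array, limma called 0 and 0 (395 to 784 up and 622 to 1066 down at an unadjusted p under 0.05). The fit with no filter could not be made, since 32075 of 45037 probe sets have no array above the noise level. The settings meant for the cell cycle lists were not run, since their probe sets have no name here. Only 2 arrays per genotype measure the spread.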
